A study of Mus musculus with 4 samples.

Results

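The Wnt ligands, their receptors and the secreted proteins that modulate them were followed in differentiating mouse embryonic stem cells. They were chosen by gene symbol alone: the Wnt, Fzd, Sfrp, Dkk and Rspo gene families together with Lrp5, Lrp6, Ror1, Ror2, Wif1 and Porcn. The rule found 47 of 26994 named or numbered genes, on 60 of 35656 transcript rows. They are 19 ligands, 10 Frizzled receptors, 2 low-density lipoprotein receptor-related co-receptors, 2 Ror receptors, 4 Sfrp genes with Wif1, 4 Dkk genes, 4 R-spondins and Porcn. Poly(A) RNA was sequenced from 4 libraries of the CJ9 embryonic stem cell line, of strain 129S4/SvJae, 2 titled day 4 and 2 titled day 6 of withdrawal of leukemia inhibitory factor (LIF), the cytokine that holds mouse embryonic stem cells in self-renewal. All 4 libraries are labelled wild type and Cas9 only, so this label is shared by both groups, and no undifferentiated library enters the comparison. Cells with the Evx1as/Evx1 locus deleted, which the series was built around, were not analysed here. Levels are given as FPKM, in which the fragments of a transcript are scaled to its length and to the mapped fragments of the library, and were summed over the transcripts of a gene.

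Wnt proteins are lipid-modified signals. The acyltransferase Porcn attaches the lipid, and a secreted Wnt is bound at the cell surface by a Frizzled receptor, with Lrp5 or Lrp6 in the branch that stabilises beta-catenin and with Ror1 or Ror2 in branches that do not need it. Sfrp proteins and Wif1 bind the ligand, Dkk1, Dkk2 and Dkk4 bind the Lrp co-receptors, and R-spondins keep Frizzled and Lrp proteins at the surface. In the early embryo Wnt3 is needed for the primitive streak, where mesoderm and endoderm arise, and Wnt5a acts in elongation of the embryo and in mesenchyme.

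Library values are given below in the order day 4 replicate 1, day 4 replicate 2, day 6 replicate 1, day 6 replicate 2. The culture text gives 2 and 6 days without LIF for day 4 replicates 1 and 2, and 4 and 6 days for day 6 replicates 1 and 2, which departs from the title in 3 of the 4 cases; the titles were followed. Separate cultures are not stated for the replicates, and the p-values therefore measure only how these libraries scatter, a scatter that may be technical. The day 4 libraries stood apart from each other. Of 11716 genes tested, 52.9% differed by more than 1 log2 unit between them, against 1.76% between the day 6 libraries. For the 32 Wnt genes tested these counts were 16 and 3. Evx1 itself measured 12.1, 133, 4.88 and 4.91 FPKM. The median ratio of coverage to FPKM, which follows depth, was 0.698 and 0.929 at day 4 and 1.82 and 1.59 at day 6, so low genes were measured less precisely at day 4.

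The embryonic stem cell markers summed to 713, 498, 159 and 136 FPKM (8 genes, 3 higher and 3 lower at day 6 with no overlap between the days), and Pou5f1 was present at 368, 376, 54.9 and 42.0 FPKM. Both day 6 libraries thus held less of the labelled cell type's marker RNA in sum than either day 4 library. Pou5f1 was the largest term of that sum in every library. The 3 higher genes were Zfp42, Esrrb and Klf4, while Tdgf1 and Dppa4 overlapped between the days. Primitive streak and nascent mesoderm markers summed to 267, 697, 29.4 and 29.2 FPKM, with 6 of 6 genes lower at day 6. Fibroblast markers summed to 10.3, 9.78, 151 and 284 FPKM, with 7 of 8 higher and Postn, Dcn and Lum at 0 in both day 4 libraries. Blood and endothelial markers summed to 4.58, 1.42, 189 and 736 FPKM (7 of 7 higher, with Gata1, Hba-x and Hbb-bh1 at 0 at day 4), and trophoblast markers to 27.6, 71.0, 202 and 207 FPKM (5 of 5 higher, Elf5 and Plac1 at 0 at day 4). Krt7 held most of the trophoblast sum in every library, at 25.7, 58.1, 146 and 129 FPKM. Elf5 reached only 0.153 and 0.224 FPKM at day 6, and Gcm1 measured 0.312, 0.528, 0.965 and 1.04 FPKM. Endoderm markers summed to 10.2, 16.9, 44.9 and 67.3 FPKM (6 of 8 higher, Ttr and Hnf4a at 0 at day 4 and Afp at 0 throughout), and neural markers to 150, 96.4, 32.3 and 13.4 FPKM (2 of 5 lower). At day 4 the neural sum was mostly Nes, which measured 140, 87.6, 14.3 and 5.76 FPKM over the libraries. Sox1, the other lower gene, stayed under 1 FPKM, and Tubb3, Map2 and Pax6 overlapped between the days. The marker counts stand beside 41.6% of all genes tested that were higher at day 6 without overlap and 11.5% lower. Some markers averaged under 1 FPKM, and without a filter on low values these shares were 38% and 9.45%. In bulk RNA, fewer cells of a type and less RNA per cell cannot be told apart. The part of the marker shifts in the Wnt values was not tested.

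The comparison sets the libraries titled day 6 against those titled day 4, in an order that the culture text does not share. A group of Wnt genes was lower in both day 6 libraries than in either day 4 library, namely Wnt8a, Wnt3, Fzd10, Wnt5b and Rspo1. Another was higher in both, namely Wnt5a, Dkk3, Rspo3, Wnt9a, Fzd4, Wnt2, Fzd8 and Ror1. The largest differences of mean FPKM were 17.1-fold lower for Wnt8a and 10.5-fold higher for Wnt5a. The other 19 of the 32 overlapped between the days, and in 12 of these both day 6 libraries lay between the day 4 libraries. The 32 averaged 1 FPKM or more over the 4 libraries, and the 15 others are described separately. Of the higher genes, Dkk3, Fzd4, Wnt2 and Ror1 averaged under 1 FPKM at day 4 and reached this filter through day 6. Of the lower genes, Wnt8a and Rspo1 averaged under 1 FPKM at day 6 and reached it through day 4. Their part in the counts below is therefore partly set by the filter.

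No gene passed limma's test at an adjusted p of 0.05 (0 of 11716, 0%), and the smallest adjusted p, 0.267, was shared by Wnt8a, Wnt5a and Dkk3 among others. At an unadjusted p under 0.05, limma gave 8 of the 32 Wnt genes and 1793 of all genes (15.3%). The 8 of 32 higher without overlap (25%) stand beside 41.6% of all genes tested, and the 5 lower (15.6%) beside 11.5%. For all genes, 33.5% had both day 6 libraries between the day 4 libraries. The median log2 difference, day 6 minus day 4 on log2(FPKM + 1), was -0.02 for the Wnt genes and 0.51 for all genes, so 12 Wnt genes lay above the all-gene median and 20 below it. After the libraries were shifted to a common median, 20.3% of all genes were higher and 26.4% lower. In that setting 4 Wnt genes (Wnt5a, Dkk3, Wnt9a and Fzd4) were higher and 10 lower, the 10 including all 5 named above. The same 4 higher and the same 5 lower genes also kept their place after correction for GC content. With that correction 12 Wnt genes were higher and 7 lower, beside 51.4% and 11.2% of all genes.

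Calls appeared when either day 4 library was left out. With day 4 replicate 1 left out, 11 Wnt genes were higher without overlap and 20 lower, beside 64.8% and 29% of all genes. With day 4 replicate 2 left out, 20 were higher and 8 lower, beside 60.1% and 31.9%. In the limma fits that gave the calls, the single day 4 library is assumed to vary like the day 6 pair. Both fits share the same day 6 libraries and take their scatter from that pair alone, so a call in both is not a repeat. The share of all genes called in both was not counted. With these limits, Wnt5a, Dkk3 and Fzd4 were called higher in both, and Wnt8a, Wnt3, Fzd10, Wnt5b and Rspo1 lower. Called in both but in opposite directions were Wnt6, Ror2 and Dkk1.

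**Figure D1:**
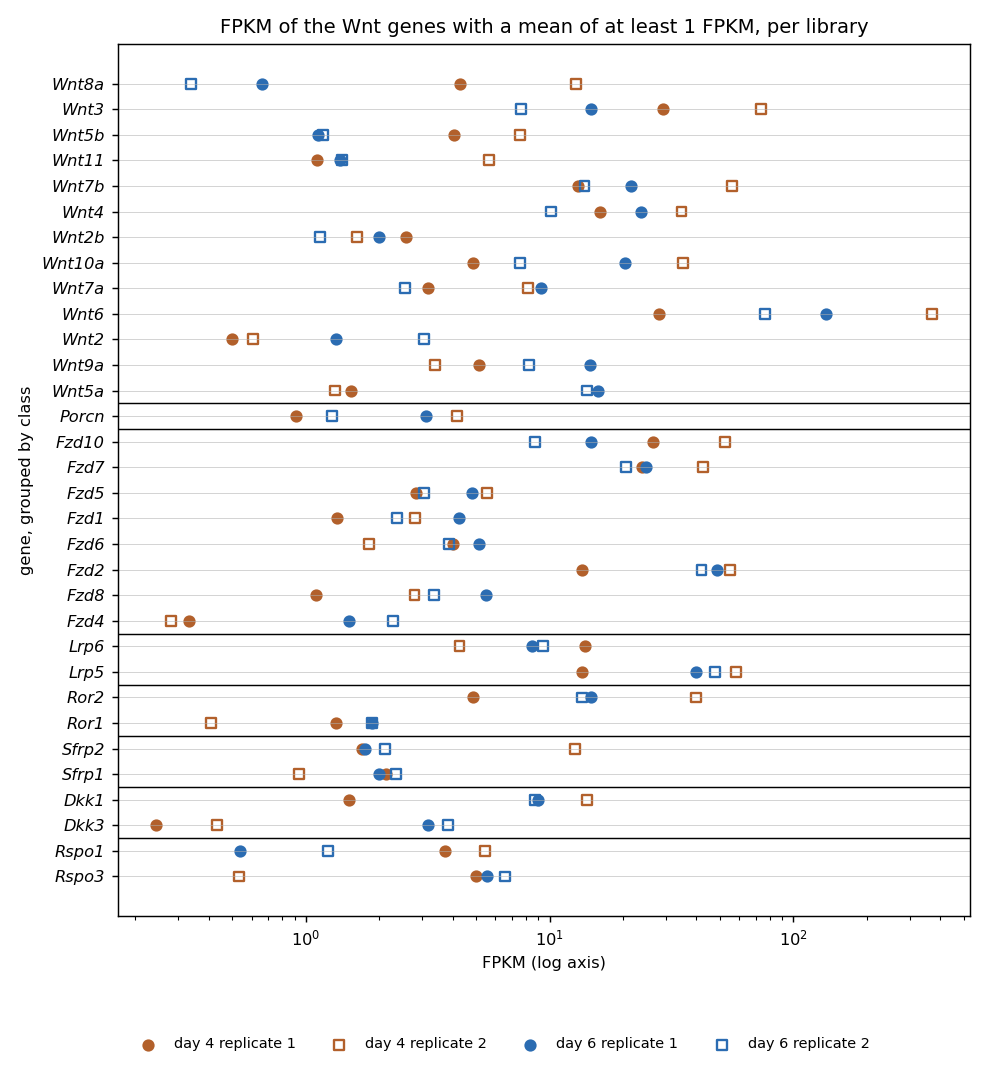
FPKM of the 32 Wnt genes that averaged 1 FPKM or more, on a log axis, 1 point per library and grouped by class. The day 6 points lie close together for most genes, while day 4 points are far apart for Wnt6 (28.1 and 369 FPKM), Ror2 (4.87 and 39.7) and Dkk1 (1.505 and 14.2).

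**Figure D2:**
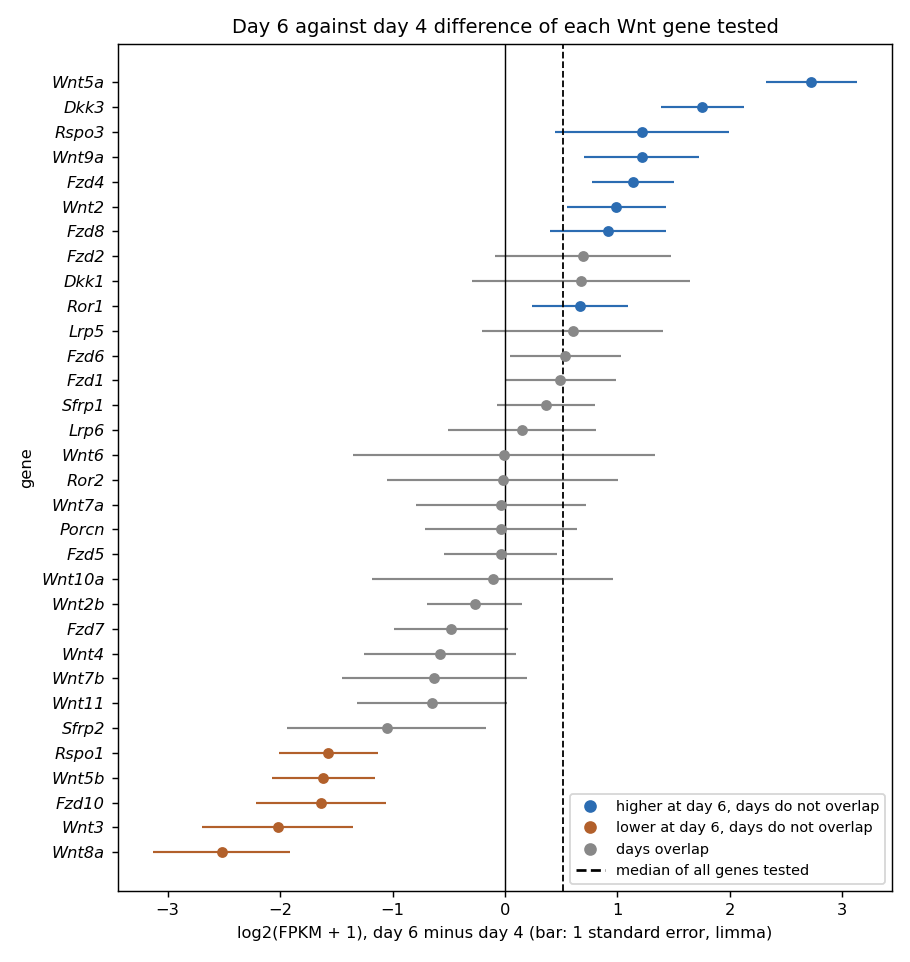
Log2 difference of log2(FPKM + 1), day 6 minus day 4, with 1 limma standard error, for the same 32 genes; the dashed line is the median of all genes tested, 0.51. The ends are Wnt8a at -2.52 and Wnt5a at 2.72, and the genes whose days overlap fill the middle.

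Among the ligands, Wnt3, on the plus strand at chr11:103774175-103818021 (mm10), measured 29.2, 73.6, 14.8 and 7.66 FPKM. Both day 4 values were above both day 6 values, and the mean went from 51.4 ± 31.5 to 11.2 ± 5.02 FPKM (SD, n = 2 libraries each), a log2 difference of -2.02 (SE 0.67, limma adjusted p = 0.302). Wnt8a, a ligand of the gastrulating embryo, measured 4.31, 12.8, 0.665 and 0.338 FPKM, with a log2 difference of -2.52 (SE 0.61, limma adjusted p = 0.267). Wnt5b, known in cartilage and in cell movements of gastrulation, measured 4.07, 7.57, 1.12 and 1.17 FPKM, with a log2 difference of -1.62 (SE 0.46, limma adjusted p = 0.288). All 3 were highest in day 4 replicate 2, and their day 4 and day 6 libraries did not overlap.

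Wnt5a, at chr14:28505473-28525515 on the plus strand, was the opposite case. It measured 1.53, 1.32, 15.8 and 14.2 FPKM, or 1.43 ± 0.150 at day 4 and 15.0 ± 1.15 at day 6, a log2 difference of 2.72 (SE 0.41, limma adjusted p = 0.267). The 2 libraries of each day lay close together and far from those of the other day. Wnt9a, a ligand of joints and blood stem cell formation, measured 5.13, 3.38, 14.6 and 8.26 FPKM, 2.69-fold higher on average at day 6 (log2 difference 1.21, SE 0.51, limma adjusted p = 0.356). Wnt2, a ligand of lung, placental and heart development, measured 0.499, 0.608, 1.34 and 3.06 FPKM (log2 difference 0.99, SE 0.44, limma adjusted p = 0.375). Wnt2 overlapped between the days once the libraries were shifted to a common median.

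The other 7 ligands tested overlapped between the days. Wnt6, known in epithelia and at the border of the neural plate, was the most abundant ligand in 3 of the 4 libraries, at 28.1, 369, 136 and 76.3 FPKM. Its day 4 libraries differed 13.1-fold and enclosed both day 6 values, so its log2 difference of -0.01 (SE 1.34, limma adjusted p = 0.998) is the mean of distant values: without day 4 replicate 1 it was -1.84 and without day 4 replicate 2 it was 1.82. Wnt10a, a ligand of skin and teeth and the neighbour of Wnt6, had the same shape at 4.88, 35.3, 20.3 and 7.59 FPKM. Wnt7b, of lung and kidney development, measured 13.1, 56.1, 21.5 and 13.9 FPKM, and Wnt4, of kidney and gonad development, 16.1, 34.8, 23.7 and 10.1 FPKM. In all of these day 4 replicate 2 was the highest library. Wnt7a, of limb and nervous system patterning, measured 3.17, 8.13, 9.24 and 2.55 FPKM, Wnt11, of heart and kidney development, 1.12, 5.65, 1.38 and 1.41 FPKM, and Wnt2b 2.58, 1.62, 2.00 and 1.15 FPKM. None of the 3 separated the days.

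The shares of Wnt3 and Wnt5a in the ligand RNA differed between the days without overlap, while those of the more abundant Wnt6 overlapped. Summed over 19 ligands, FPKM were 116, 614, 265 and 149 (exact permutation test of 2 against 2 libraries, two-sided p = 1, where 0.333 is the smallest p possible), and without Wnt6 they were 87.8, 245, 128 and 72.6. Wnt3 held 25.1% and 12.0% of the sum at day 4, ranking the 1st and the 2nd, and 5.58% and 5.15% at day 6, ranking the 6th in both. Wnt5a held 1.32% and 0.215% at day 4 and 5.99% and 9.56% at day 6. The ratio of Wnt5a to Wnt3 was 0.0526 and 0.0179 at day 4 and 1.07 and 1.86 at day 6, so Wnt3 was the more abundant of the pair in both day 4 libraries and Wnt5a in both day 6 libraries. A ratio within a library does not depend on how libraries are scaled to each other. It is not freed of a gap that follows transcript GC content, which was 46.6% for Wnt5a and 52.6% for Wnt3. Both genes were already seen to differ in opposite directions, so the ratio restates those differences and adds no separate support. Wnt6 held 24.3%, 60.1%, 51.5% and 51.2%, so its day 6 shares lay between its day 4 shares. The shares of Wnt7b (11.3%, 9.14%, 8.13% and 9.34%) and Wnt4 (13.8%, 5.67%, 8.94% and 6.79%) overlapped as well.

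**Figure D3:**
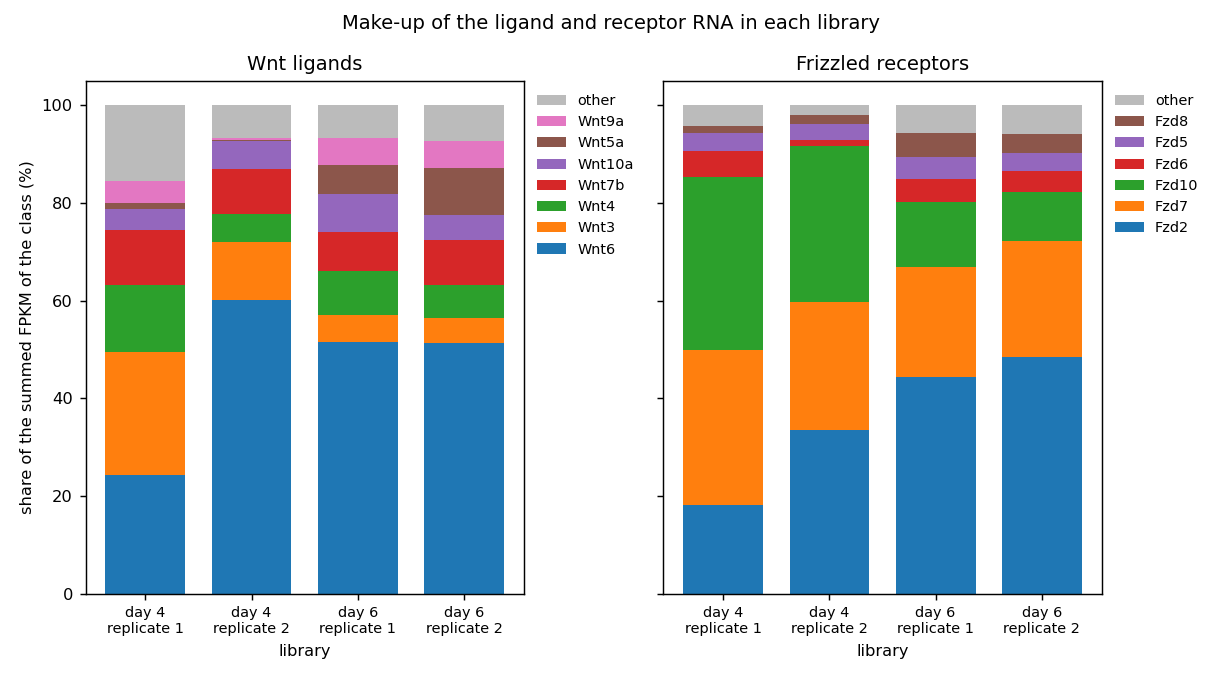
Share of each gene in the summed FPKM of the ligands (left) and the Frizzled receptors (right), 1 stacked bar per library. Wnt3 shrinks from 25.1% and 12.0% at day 4 to 5.58% and 5.15% at day 6, and Fzd10 from 35.4% and 32.1% to 13.4% and 10.05%, while Fzd2 and Wnt5a take larger shares.

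The 250 bases before the start of Wnt3 and of Wnt9a are shown because these ligands differed in opposite directions without overlap. Both come from RefSeq promoters of GRCm38.p6, the assembly that mm10 stands for, 5′ to 3′ on the gene's strand, and capitals mark GC boxes, that is GGGCGG or its reverse complement, a sequence that Sp factors can bind.
Wnt3, chr11:103773925-103774174, plus strand: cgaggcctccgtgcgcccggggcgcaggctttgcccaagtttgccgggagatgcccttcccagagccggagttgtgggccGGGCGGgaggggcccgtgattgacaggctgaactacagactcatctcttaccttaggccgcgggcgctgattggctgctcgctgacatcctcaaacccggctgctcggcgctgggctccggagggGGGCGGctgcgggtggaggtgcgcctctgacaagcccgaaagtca
Wnt9a, chr11:59306680-59306929, plus strand: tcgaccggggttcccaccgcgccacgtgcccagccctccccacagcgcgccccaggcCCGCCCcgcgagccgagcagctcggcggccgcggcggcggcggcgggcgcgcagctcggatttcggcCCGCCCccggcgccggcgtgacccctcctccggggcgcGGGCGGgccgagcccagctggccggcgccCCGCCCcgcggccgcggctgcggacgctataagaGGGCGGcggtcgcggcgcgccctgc
The Wnt3 window holds 2 GC boxes at 68.0% GC, and the Wnt9a window holds 5 at 84.4% GC.

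Of the ligands, 8 lie in pairs under 100 kb apart, and their values show how far neighbours moved alike. Wnt3 and Wnt9b lie 24353 bases apart on chromosome 11 on opposite strands, and Wnt9b, at 1.03, 1.32, 0.208 and 0.158 FPKM, was also lower in both day 6 libraries. Wnt9a and Wnt3a lie 16178 bases apart on chromosome 11, also on opposite strands, and Wnt3a measured 0.226, 0.993, 0.427 and 0.621 FPKM, with no separation of the days. Wnt6 and Wnt10a lie 6699 bases apart on the plus strand of chromosome 1 and shared the order of their 4 libraries. Wnt10b and Wnt1 lie 11706 bases apart on chromosome 15, where Wnt10b reached 1.63 FPKM in day 4 replicate 2 and Wnt1 was listed at 0 in all 4 libraries.

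Some genes have more than 1 deposited transcript. For Wnt5a the day 6 RNA was nearly all on NM_009524, which starts at position 28505473 of chromosome 14: it held 99.2% and 98.7% of the gene's FPKM in the day 6 libraries. At day 4 the split was not reproduced, since day 4 replicate 1 gave 1.53 FPKM to NM_001256224, which starts at 28511405, and day 4 replicate 2 gave 1.32 FPKM to NM_009524. For Wnt5b the day 4 RNA was on NM_001271757, with 4.07 and 7.56 FPKM, starting at 119449386 on the minus strand of chromosome 6. At day 6 that transcript had 0.886 and 0.000687 FPKM, and the upstream transcript NM_009525, starting at 119544347, had 0.238 and 0.454 FPKM. A further transcript, NM_001271758, starting at 119467211, had 0.720 FPKM in day 6 replicate 2, the largest share there (61.3%), and close to 0 in the other libraries. Wnt5b lies across Fbxl14, which measured 16.7, 36.0, 11.2 and 11.8 FPKM, and how reads of overlapping genes were divided was not given in the sources used here. NM_009528 held 96.0% to 100.0% of Wnt7b in every library. Fzd5, Fzd6, Porcn and Wnt11 also have several transcripts. NM_016913 held 98.5% to 100.0% of Porcn and NM_008056 held 66.3% to 100.0% of Fzd6, whereas for Fzd5, whose 2 transcripts share a start, NM_001042659 held 100.0%, 53.2%, 0.0132% and 33.1%. For Wnt11, NM_009519 held 7.73%, 100.0%, 64.0% and 84.1%.

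Porcn, which every Wnt needs for secretion, measured 0.917, 4.19, 3.13 and 1.28 FPKM. Both day 6 libraries lay between the day 4 libraries (log2 difference -0.04, SE 0.67, limma adjusted p = 0.981).

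Among the Frizzled receptors, Fzd10, at chr5:128601106-128604093 on the plus strand, measured 26.6, 52.5, 14.7 and 8.70 FPKM. The days did not overlap, the mean was 3.38-fold lower at day 6, and the log2 difference was -1.64 (SE 0.58, limma adjusted p = 0.313). Fzd4, a receptor of retinal blood vessels that also binds norrin, measured 0.333, 0.280, 1.51 and 2.28 FPKM, with a log2 difference of 1.14 (SE 0.36, limma adjusted p = 0.297). Fzd8 measured 1.10, 2.79, 5.49 and 3.36 FPKM, with a log2 difference of 0.91 (SE 0.52, limma adjusted p = 0.449), and it overlapped between the days after the shift to a common median. Fzd10 and Fzd4 therefore mark the ends of the family.

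The abundant receptors Fzd2 and Fzd7 overlapped between the days. Fzd2 measured 13.6, 54.97, 48.8 and 42.0 FPKM and Fzd7 measured 23.9, 42.6, 24.8 and 20.5 FPKM. Fzd2 was the 3rd of the family in day 4 replicate 1, with 18.1% of the family's FPKM, and the most abundant in the 3 other libraries, with 33.6%, 44.4% and 48.5%. Fzd10 held 35.4% and 32.1% at day 4 and 13.4% and 10.05% at day 6. Fzd1 (1.34, 2.81, 4.24 and 2.37 FPKM), Fzd5 (2.82, 5.52, 4.83 and 3.05 FPKM) and Fzd6 (4.03, 1.81, 5.13 and 3.87 FPKM) were low in every library and did not separate the days. The family summed to 75.2, 164, 110.0 and 86.6 FPKM (exact permutation p = 1, two-sided).

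The windows before the starts of Fzd10 and Fzd4 are shown for the same reason as those of the ligands, with the same source and capitals.
Fzd10, chr5:128600856-128601105, plus strand: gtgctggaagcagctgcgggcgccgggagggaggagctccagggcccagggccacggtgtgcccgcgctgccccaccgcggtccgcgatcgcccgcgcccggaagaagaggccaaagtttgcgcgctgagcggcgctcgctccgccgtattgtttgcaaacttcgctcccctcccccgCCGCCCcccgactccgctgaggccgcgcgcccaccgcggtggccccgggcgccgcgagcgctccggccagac
Fzd4, chr7:89404116-89404365, plus strand: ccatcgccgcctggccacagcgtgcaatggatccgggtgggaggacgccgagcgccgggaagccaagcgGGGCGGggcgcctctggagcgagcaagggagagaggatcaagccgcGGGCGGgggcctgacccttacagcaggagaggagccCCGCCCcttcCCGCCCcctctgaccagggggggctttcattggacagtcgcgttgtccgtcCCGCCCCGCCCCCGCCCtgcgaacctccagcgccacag
The Fzd10 window holds 1 GC box at 76.4% GC, and the Fzd4 window holds 7 at 72.8% GC, counting boxes that share a base separately. Of the 47 genes, 30 had a promoter entry, giving 33 separate windows, and 24 windows (72.7%) held a GC box on either strand, against 32.7% of all 32851 windows of this length. Their median GC content was 68.0%, against 52.4%. CTTTGAA or CTTTGAT, a core that TCF and LEF factors can bind, was present on either strand in 3 windows (9.09%), those of Dkk1, 1 of the Wnt11 starts and the NM_001271757 start of Wnt5b, against 7.48% of all windows. These matches describe letters in a window and not binding.

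The co-receptors Lrp5 and Lrp6 had opposite orders at day 4. Lrp5 measured 13.6, 58.2, 39.9 and 47.8 FPKM and Lrp6 measured 14.0, 4.27, 8.45 and 9.38 FPKM, each with both day 6 libraries between the day 4 libraries. Their ratio was 0.969 and 13.6 at day 4 and 4.72 and 5.09 at day 6, so by FPKM the co-receptors were near equal in day 4 replicate 1 and Lrp5 was the more abundant in the 3 other libraries. Ror2, a receptor for Wnt5a, measured 4.87, 39.7, 14.8 and 13.6 FPKM and likewise lay between its day 4 values at day 6 (log2 difference -0.02, SE 1.03, limma adjusted p = 0.994). Ror1, its close relative, measured 1.33, 0.409, 1.87 and 1.87 FPKM, higher in both day 6 libraries (log2 difference 0.66, SE 0.43, limma adjusted p = 0.486), but overlapping after the shift to a common median. Wnt5a was therefore 10.5-fold higher on average at day 6 while Ror2 overlapped between the days.

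Among the antagonists, Dkk3, a Dickkopf relative that is not known as an Lrp inhibitor of the usual kind, measured 0.244, 0.433, 3.18 and 3.85 FPKM. It was 10.4-fold higher on average at day 6 with no overlap (log2 difference 1.75, SE 0.37, limma adjusted p = 0.267). Dkk1, an Lrp inhibitor and a target of beta-catenin signalling, measured 1.505, 14.2, 9.005 and 8.69 FPKM. Its day 4 libraries differed 9.44-fold, and its log2 difference was -0.63 without day 4 replicate 1 and 1.98 without day 4 replicate 2. Sfrp2, a ligand binder, measured 1.70, 12.7, 1.75 and 2.12 FPKM, so that day 4 replicate 2 alone was high, and Sfrp1 measured 2.13, 0.939, 2.01 and 2.35 FPKM. The Sfrp genes and Wif1 summed to 5.25, 16.5, 4.33 and 5.25 FPKM (exact permutation p = 0.667, two-sided), and the Dkk genes to 1.80, 14.6, 12.8 and 12.9 FPKM (exact permutation p = 1, two-sided).

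The R-spondins, which strengthen Wnt signalling, went separate ways. Rspo1, known in ovary development, measured 3.73, 5.44, 0.540 and 1.24 FPKM, 5.17-fold lower on average at day 6 with no overlap (log2 difference -1.57, SE 0.44, limma adjusted p = 0.288). Rspo3, needed for placental and vascular development, measured 4.98, 0.531, 5.53 and 6.58 FPKM, with a log2 difference of 1.22 (SE 0.77, limma adjusted p = 0.484). Day 4 replicate 1 was close to the day 6 libraries and only day 4 replicate 2 was low: without the latter the difference was 0.23, and after the shift to a common median the days overlapped. By FPKM, Rspo3 was the higher of the pair in day 4 replicate 1 (4.98 against 3.73) and in both day 6 libraries. Rspo1 was the higher in day 4 replicate 2 (5.44 against 0.531). The order of the pair thus differed between the day 4 libraries.

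The other 15 genes had a mean under 1 FPKM and were not tested. Wnt1, Wnt8b and Dkk4 were listed at 0 in all 4 libraries. Dkk2 (0.0551, 0, 0.653 and 0.357 FPKM), Rspo2 (at most 0.126 FPKM) and Wif1 (at most 0.110 FPKM) were higher at day 6 without overlap. Rspo2 and Wif1 were listed at 0 at day 4, where depth was lower. Their authors' FPKM interval at day 6 reached 0 for Wif1 in both libraries and for Rspo2 in replicate 2. The listed values of Rspo2 and Wif1 therefore separate the days only weakly. Besides Wnt9b, Sfrp5 (0.561, 2.62, 0.289 and 0.528 FPKM) and Sfrp4 (0.855, 0.248, 0.189 and 0.144 FPKM) were lower. The interval of Sfrp5 in day 4 replicate 1 (0.103 to 0.927) held both of its day 6 values. So did that of Sfrp4 in day 4 replicate 2 (0 to 0.562). The intervals of Wnt9b lay apart between the days. Wnt10b and Wnt3a, given above, and Wnt16 (at most 0.259 FPKM), Fzd3 (at most 1.03), Fzd9 (at most 0.400) and Rspo4 (at most 3.003, in day 4 replicate 1) overlapped between the days. Over all 47 genes 11 were higher, 8 lower and 28 overlapped, while without the filter on low values 38% of 18550 genes were higher and 9.45% lower.

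The gap between the day 4 libraries followed transcript GC content among the Wnt genes. Of 17 tested genes with at least 55% GC, 15 were higher in day 4 replicate 2, with a median gap of 1.38 log2 units, and of 15 with less GC, 8 were higher there, with a median of 0.10. The same medians over all genes were 0.97 and -0.77. Across the 32 genes, GC content and the gap had a Spearman rho of 0.63 and a Pearson r of 0.66, and across 11370 genes 0.64 and 0.60. These are descriptions across genes that share 2 libraries. The median GC content was 55.4% for the Wnt genes and 51.2% for all genes. Dkk1 stood off the trend, with 45.9% GC and a gap of 2.60. The part of GC content in the separate Wnt differences was not tested beyond the correction described above.

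**Figure D4:**
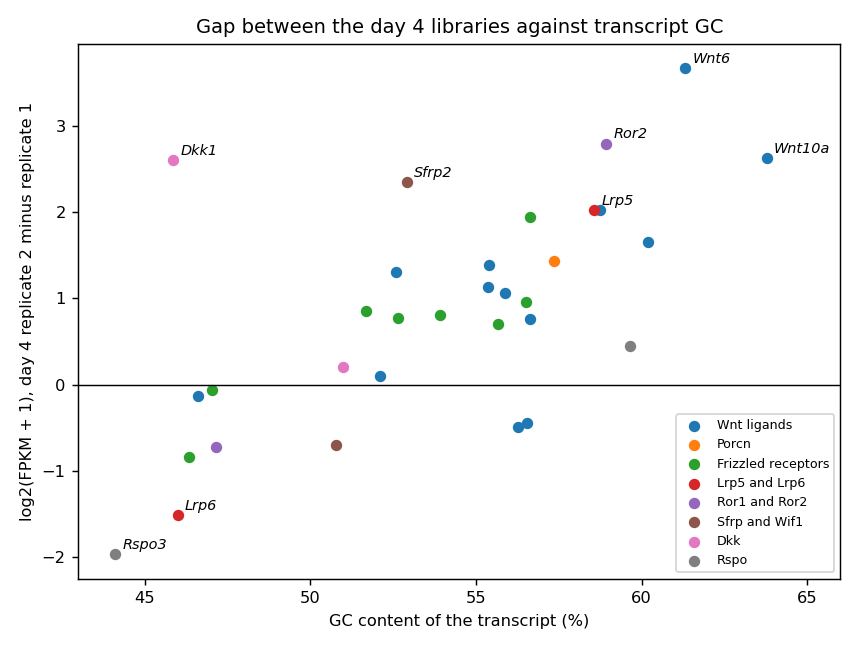
Difference of log2(FPKM + 1) between day 4 replicate 2 and replicate 1 against the GC content of the transcript, 1 point per Wnt gene tested, coloured by class. Genes at 55% GC or more lie mostly above 0 (15 of 17), and Dkk1 lies high at 45.9% GC.

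The deposited intervals also set the libraries of a day against each other. For the 25 tested Wnt genes with a single transcript row, the FPKM intervals of the 2 day 4 libraries lay apart for 19 (76%) and those of the day 6 libraries for 14 (56%). For all such genes these shares were 71.9% and 22.0% of 8795, so the shares of the 2 days lay closer together for the Wnt genes. Some deposited intervals do not hold their own value: Wnt6 lay above its upper bound in day 4 replicate 2 and in day 6 replicate 1, and 365 to 647 of the 35656 rows of a library lay outside theirs.

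The rest of the Wnt pathway was read from a list of 53 other genes, of which 45 were tested. Without overlap, 19 (42.2%) were higher at day 6 and 7 (15.6%) lower, beside 41.6% and 11.5% of all genes tested, and their median log2 difference was 0.25, under the 0.51 of all genes. After the shift to a common median 11 were higher and 18 lower, where all genes had 20.3% higher and 26.4% lower. The 4 with the largest positive differences among the genes without overlap were Gpc3, Prickle1, Kremen1 and Wls. Gpc3, a heparan sulphate proteoglycan, measured 31.3, 16.1, 113 and 162 FPKM (log2 difference 2.53, limma adjusted p = 0.267). Prickle1, of the planar polarity branch, measured 3.53, 1.66, 16.9 and 17.8 FPKM (log2 difference 2.40, limma adjusted p = 0.267). Kremen1, a Dkk receptor, measured 3.01, 11.1, 29.4 and 30.6 FPKM, and Wls, which carries Wnt proteins to the cell surface, 13.9, 8.14, 43.7 and 37.6 FPKM. None of these 4 overlapped between the days.

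The 4 with the largest negative differences among the genes without overlap included 2 transcription factors of the pathway. Axin2, a feedback inhibitor and target of beta-catenin signalling, measured 24.7, 58.5, 10.2 and 8.11 FPKM (log2 difference -1.96, limma adjusted p = 0.290). Tcf7 measured 43.5, 73.3, 20.8 and 22.0 FPKM and Lef1 23.3, 21.9, 9.87 and 8.98 FPKM. Both factors were lower in both day 6 libraries, Lef1 with close agreement within each day. Gsk3a, a kinase of the complex that degrades beta-catenin, measured 67.6, 114, 55.5 and 52.8 FPKM. By role, none of the 10 nuclear genes tested was higher without overlap and 4 were lower: Tcf7, Lef1 and, named after their values were seen, Tcf7l2 and Tle4. Of the 12 nuclear genes listed, 2 others averaged under 1 FPKM, and both were higher without overlap. They were Tle2 (0, 0, 1.18 and 2.47 FPKM) and Pygo1 (0.246, 0.250, 0.824 and 1.23 FPKM). The absence of higher nuclear genes therefore depends on the filter. Of 14 cytoplasmic genes tested 8 were higher and 2 lower, of 10 membrane genes 5 and 1, and of 6 planar polarity genes 3 and 0. These small counts are to be read beside the 41.6% higher and 11.5% lower of all genes tested. The list was drawn up with results of these data known, and its difference from the ligand and receptor genes was not tested.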

How the data were processed

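Values are FPKM per transcript as the authors deposited them, 1 table per library, with the authors' interval per row. The deposited coverage column, an unscaled signal, was used only to describe depth, since the files hold no counts. CASAVA, TopHat2 2.0.11 and mm10 are named in the submitters' processing notes. The quantifier, its annotation and its use of strand were not given in the sources used here. Per the labels' protocols, libraries were stranded and made from poly(A) RNA. Rows were named from RefSeq and GENCODE (1621 kept their ID) and FPKM summed per symbol. Then limma 3.58.1 in R 4.3.3, first tested on simulated data, was run two-sided on log2(FPKM + 1), a scale that understates changes of low genes, for 11716 genes averaging 1 FPKM or more, with a variance trend, Benjamini-Hochberg adjustment and a threshold of 0.05. Without overlap means that both libraries of a day exceeded both of the other. GC content was known for 97.05% of genes tested. Alternatives were a pseudocount of 0.1 FPKM, no filter, libraries shifted to a common median, loess GC correction (span 0.3), a replicate block and each library left out. Members, lists and the naming rule (tested members by value, others by their highest value, the 4 highest and 4 lowest non-overlapping pathway genes, Evx1) were chosen with earlier results of these data known. Promoters printed are those of the 2 lowest and 2 highest non-overlapping members that have an entry off chromosome 18.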

Additional observations from a re-analysis of the deposited data

How the results depend on the processing

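Of 285 values of single Wnt genes under an alternative, 223 kept direction and side of the threshold, 31 passed the threshold in the same direction and 31 changed sign, 3 of these also passing it (Dkk1 without day 4 replicate 1, Ror2 and Wnt6 without day 4 replicate 2); the cause was not tested. With a pseudocount of 0.1 FPKM the Wnt median became 0.021, Porcn 0.017 and Ror2 0.026. With no filter on low values 8 Wnt genes were lower, the 3 added being genes under 1 FPKM. With libraries shifted to a common median, which put the all-gene median at -0.12, 4 Wnt genes were higher and 10 lower with a median of -0.65, the pathway list had 11 higher and 18 lower with a median of -0.38, and Fzd1 (-0.14), Fzd6 (-0.092), Lrp5 (-0.026), Lrp6 (-0.48) and Sfrp1 (-0.26) changed sign. With GC correction the Wnt median was 0.30, Porcn 0.22, Ror2 0.34, Wnt10a 0.56, Wnt6 0.51 and Wnt7a 0.071. The all-gene median with this correction was 0.59.

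Same-numbered libraries did not deviate together (correlation -0.09 over 11716 genes, 2 pairs). This correlation rests on a single difference per day, and the day 4 libraries stood far apart. It therefore cannot tell whether same-numbered libraries share a culture. With a replicate block 67 genes were called and 0 Wnt genes.

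Leaving out each library in turn gave 0 to 7802 genes called, the high counts coming without day 4 replicate 1 (7802) or replicate 2 (6186), and 0 without either day 6 library. With 1 library on a day fewer values must be separated, and 8 to 20 Wnt genes were higher and 6 to 20 lower, with a median of -0.61 to 0.34, and 19 to 30 pathway genes higher and 9 to 21 lower. Over all genes, the same fits had 44.3% to 64.8% higher and 13.5% to 31.9% lower. Log2 ranges of class sums were -1.57 to 0.83 for ligands, -0.73 to 0.39 for Frizzled receptors, -0.24 to 0.93 for Lrp5 and Lrp6, -1.32 to 1.38 for Ror1 and Ror2, -0.99 to 1.27 for Porcn, -0.19 to 2.83 for Dkk, -0.72 to 0.25 for Rspo and -1.78 to -0.13 for the Sfrp genes with Wif1. Single genes that changed sign ranged from -0.63 to 1.98 (Dkk1), -0.28 to 1.67 (Fzd2), -0.42 to 0.34 (Fzd5), -0.41 to 1.61 (Lrp5), -0.60 to 0.91 (Lrp6), -0.76 to 0.68 (Porcn), -1.42 to 1.37 (Ror2), -2.22 to 0.12 (Sfrp2), -1.42 to 1.203 (Wnt10a), -1.47 to 0.18 (Wnt11), -1.84 to 1.82 (Wnt6), -0.80 to 0.73 (Wnt7a) and -1.64 to 0.38 (Wnt7b). Fzd4 and Wnt2 fell under the filter when a day 6 library was left out. The files give no counts, so depth enters only through the ratio of coverage to FPKM.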
